A study of Mus musculus with 5 samples.

Results

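The genes of the major histocompatibility complex (MHC) and of peptide loading were followed in mouse myeloid progenitors with and without deletion of Mll1, which encodes a histone methyltransferase. The set holds every gene whose name in the files starts with H2-, the mouse MHC prefix, together with B2m, Tap1, Tap2, Tapbp, Tapbpl, Cd74, Ciita, Nlrc5, Cd1d1, Erap1, Calr and Canx. It has 49 entries (47 different symbols) of the 31626 genes listed: 29 of class I, 11 of class II, 7 loading genes and 2 other genes, H2-Ke2 and H2-Ke6, which take their name from the K region and encode no MHC chain.

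Common myeloid progenitors, blood progenitors of granulocytes, monocytes, red cells and platelets, came from C57Bl/6 mice with loxP-flanked Mll1 alleles and had been transformed by a retrovirus carrying the leukaemia gene MN1 with GFP. Both groups share the floxed alleles, the MN1 vector and growth in a medium with serum, IL3, IL6 and SCF. The control group (3 libraries) had received a control vector and the knockout group (2 libraries, labelled MLL1 -/-) Cre recombinase, and cells of both groups were sorted on day 7. Since every knockout library received Cre and no control did, Cre itself and loss of Mll1 cannot be told apart. Whether the libraries of a group stem from different animals or cultures is not given, so every p-value here rests on the spread between these samples alone, which may be technical. The age of the mice is not given.

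MHC class I molecules are found on nearly all nucleated cells. They consist of a heavy chain and beta-2 microglobulin (B2m) and carry peptides cut by the proteasome, carried into the endoplasmic reticulum by the transporter Tap1-Tap2, trimmed by Erap1 and loaded with the help of tapasin (Tapbp), calreticulin (Calr) and calnexin (Canx). Class II molecules, typical of B cells, dendritic cells and macrophages, are assembled with the invariant chain Cd74 and exchange its remnant for a peptide in endosomes, a step that H2-DM catalyses and H2-O restrains. Nlrc5 and Ciita are the transactivators of class I and class II genes.

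Values are FPKM, in which the authors divided fragments by gene length and by library size, so that levels of different genes can be set side by side. Comparisons between libraries still depend on the scaling chosen, and counts under 2 other scalings are given below. A gene was tested where it had at least 1 FPKM in at least 2 libraries, with limma on log2(FPKM + 1), and was called at a Benjamini-Hochberg adjusted p under 0.05 over all 11780 genes tested. Of the 49 entries, 24 passed this filter: 9 of class I, 6 of class II, all 7 loading genes and both H2-Ke genes. Of the 25 that did not pass, none exceeded 0.806 FPKM in any library, and 7 were listed at 0 in all 5. Log2 changes below are differences of log2(FPKM + 1), knockout less control, a scale on which low genes appear to change less than they did; each mean carries its SD, with n = 3 controls and n = 2 knockouts.

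Promoters of 4 of these genes are shown, because they belong to 2 genes of the class II stretch of chromosome 17 that fell (Tap1 and H2-Ob), a fallen gene elsewhere (Erap1) and the class I light chain that was not called (B2m). Each is the 250 bases before the RefSeq start on the plus strand of build GRCm38.p6: Tap1 at chr17:34187306-34187555, H2-Ob at chr17:34238655-34238904, Erap1 at chr13:74639603-74639852 and B2m at chr2:122147437-122147686. Capitals mark matches, on either strand, to CCAAT, the box bound by NF-Y (ATTGG on the other strand), and to GAAANNGAA, the core of elements bound by interferon regulatory factors.
Tap1: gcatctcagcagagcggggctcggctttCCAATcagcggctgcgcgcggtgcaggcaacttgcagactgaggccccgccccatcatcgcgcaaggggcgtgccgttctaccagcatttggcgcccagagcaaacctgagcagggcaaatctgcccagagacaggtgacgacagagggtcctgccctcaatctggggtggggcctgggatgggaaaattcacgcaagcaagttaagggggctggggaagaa
H2-Ob: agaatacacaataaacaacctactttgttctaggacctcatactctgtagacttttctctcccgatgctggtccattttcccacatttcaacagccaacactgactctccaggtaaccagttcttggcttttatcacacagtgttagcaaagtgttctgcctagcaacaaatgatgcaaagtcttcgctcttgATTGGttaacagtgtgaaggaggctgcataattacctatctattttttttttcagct
Erap1: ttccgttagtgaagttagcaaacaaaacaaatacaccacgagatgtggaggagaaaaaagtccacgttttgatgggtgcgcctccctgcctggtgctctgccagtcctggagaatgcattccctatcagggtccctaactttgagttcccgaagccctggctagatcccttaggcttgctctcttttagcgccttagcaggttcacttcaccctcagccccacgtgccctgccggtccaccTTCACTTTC
B2m: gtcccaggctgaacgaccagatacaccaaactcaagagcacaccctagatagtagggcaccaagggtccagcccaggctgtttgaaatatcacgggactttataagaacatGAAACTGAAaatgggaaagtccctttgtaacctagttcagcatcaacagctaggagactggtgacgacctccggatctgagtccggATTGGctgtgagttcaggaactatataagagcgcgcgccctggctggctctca

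Among the 19 tested members with a RefSeq promoter, 17 held CCAAT, against 37.5% of all 27025 genes in that table (33.8% of 32851 promoters). GAAANNGAA was found in 4 of the 19 (B2m, H2-T22, H2-T23 and Erap1), against 8.18% of genes. GGAANNGAA, a core bound jointly by ETS factors and interferon regulatory factors, was found in 0 of the 19 (8.01% of genes), and TTCNNNGAA, the site of STAT dimers, in 2 (H2-M3 and H2-DMb2; 8.13% of genes). No promoter above holds matches that overlap. Of the 6 genes that fell, 4 have an entry: Tap1, H2-Ob and, at the second of its starts, H2-DMa held CCAAT, while Erap1 held GAAANNGAA and no CCAAT. A match says only that these letters are present.

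Of the 24 tested genes, 6 fell in the knockout libraries and none rose. Those 6 were the class II editing genes H2-DMa and H2-Ob, the peptide transporter genes Tap1 and Tap2, the trimming enzyme gene Erap1 and the class I-like gene Cd1d1. Over all genes tested, 5.97% fell, 3.82% rose and 9.79% were called in either direction (703 and 450 genes; 603 and 589 with median-ratio scaling, 564 and 518 with quantile normalization). By class, 1 of 9 class I genes, 2 of 6 class II genes and 3 of 7 loading genes fell. The median log2 change was -0.30 over the tested members, -0.25 for class I, -0.64 for class II and -0.15 for loading genes, beside -0.028 over all genes tested. H2-Ob and H2-DMb2 passed the filter only through the controls, so these counts and medians describe the genes that passed and not the whole set. In 13 tested members both knockout libraries were below all controls (29.4% of all genes tested) and in 2 they were above (22.9%).

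**Figure D1:**
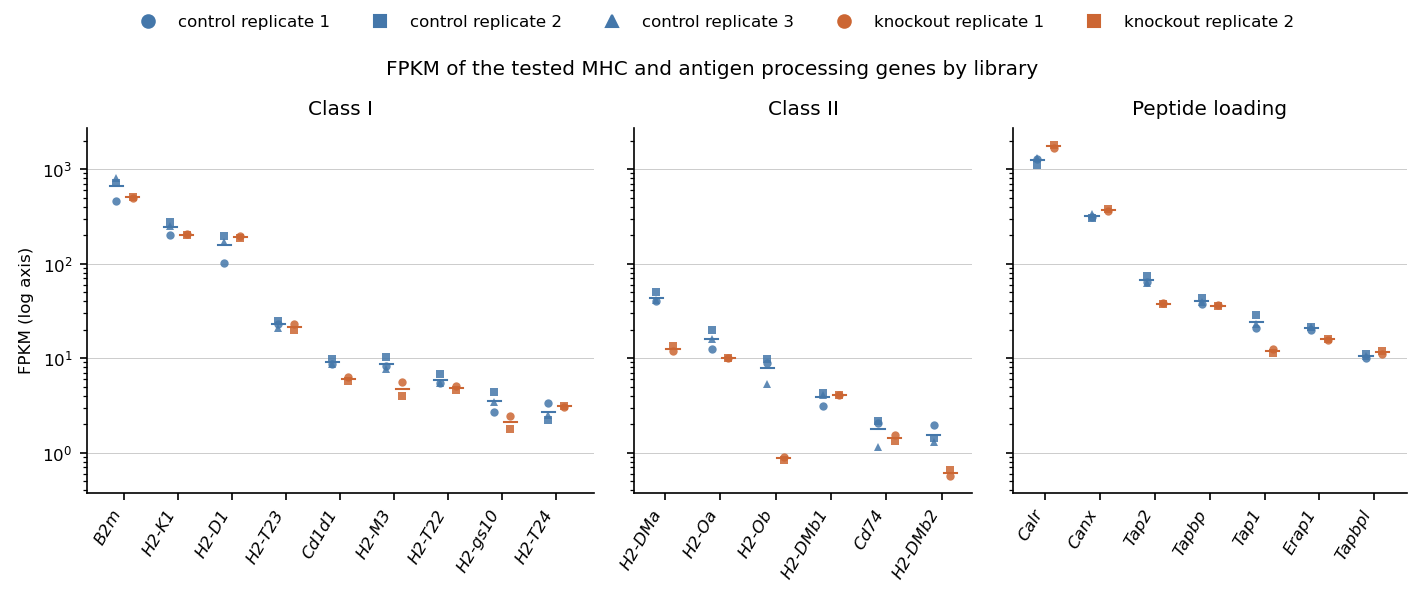
FPKM of the tested MHC and antigen-processing genes on a log axis, in 3 panels (class I, class II and loading genes), with 1 point per library, controls in blue, knockouts in orange and a line at each group mean. H2-Ob (0.9001 and 0.834 against 5.26 to 9.70 FPKM) and H2-DMa (11.8 and 13.4 against 39.8 to 49.7 FPKM) show gaps between the groups, whereas the points of H2-D1 and H2-DMb1 overlap.

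One control library stood apart from the other 2, which bears on several members. In control replicate 1, 14 of the 24 tested members were at their lowest control level (58.3%), against 49.3% of all genes tested. Without it, 12 members were called: 11 fell, the 6 above with B2m, H2-K1, H2-DMb2, H2-Oa and H2-Ke6, and Calr rose. The background rose as well, to 18.0% of all genes fallen, 11.9% risen and 29.8% called in either direction. The calls rest on few libraries: over all genes, 111 and 204 were called when control replicate 2 or 3 was left out, and 7 and 0 when the first or the second knockout library was (limma; 1669 genes then had an unadjusted p under 0.05), and each knockout left alone is assumed to vary like the controls. Mll1 levels were 9.67, 7.28 and 7.19 FPKM in control libraries against 6.22 and 5.32 FPKM in knockout libraries, a log2 change of -0.41 (adjusted p = 0.158; two-sided exact permutation p = 0.1, the smallest that 5 libraries allow). The labels do not name the deleted exons, and gene-wide FPKM includes reads from exons outside them.

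The main class I chain genes were not called. The classical heavy chains H2-K1 and H2-D1, which present peptides to CD8 T cells, summed to 304, 474 and 419 FPKM in the controls and 398 and 389 in the knockouts. Both knockout sums lie inside the control range.

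H2-K1 was at 202, 277 and 250 FPKM in control libraries and 204 and 201 FPKM in knockout libraries (log2 change -0.25, 95% interval -0.63 to 0.13, adjusted p = 0.325). H2-D1 was at 103, 198 and 169 FPKM against 194 and 188 (0.34, interval -0.40 to 1.08, adjusted p = 0.483). The light chain B2m, needed for every class I molecule to reach the surface, had 460, 718 and 808 FPKM against 498 and 511 (-0.35, interval -1.01 to 0.31, adjusted p = 0.416). Control replicate 1 lay below both knockouts for B2m and H2-D1; the other 2 controls lay above both for B2m and on either side of them for H2-D1. Without that library, H2-K1 (-0.38, adjusted p = 0.0269) and B2m (-0.59, adjusted p = 0.0155) fell, and H2-D1 was not called (0.064, adjusted p = 0.633). Reads of H2 genes with near-identical copies may be divided between them, so the levels of single class I heavy chains are uncertain.

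The measured ratio of the 2 heavy chains to each other was lower in both knockouts than in all controls. H2-K1 divided by H2-D1 was 1.97, 1.40 and 1.48 in the controls and 1.05 and 1.07 in the knockouts, with no overlap. B2m divided by H2-K1 was 2.28, 2.60 and 3.23 against 2.44 and 2.55, which overlap. In exact two-sided permutation tests of the 5 libraries, the first ratio gave p = 0.1, the smallest possible, and the second p = 0.8. Over the 8 ratios computed, the smallest adjusted p was 0.16, so no ratio could pass a threshold of 0.05.

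Non-classical class I genes were lower in sum, at 42.7, 48.7 and 39.6 FPKM for H2-M3, H2-T22, H2-T23, H2-T24 and H2-gs10 together in the controls and 39.3 and 33.1 in the knockouts. H2-T23, whose product Qa-1 is a ligand of NKG2 receptors on natural killer cells, made up most of it: 22.8, 24.95 and 20.7 FPKM against 23.2 and 19.7, which overlap (-0.086, adjusted p = 0.671). H2-M3, which presents N-formylated peptides of bacterial and mitochondrial origin, was at 8.32, 10.4 and 7.58 FPKM against 5.54 and 3.95. The groups of H2-M3 did not overlap, but the test missed the threshold (-0.77, interval -1.24 to -0.30, adjusted p = 0.0646). H2-gs10, listed as H2-Q4 in GENCODE M21, had 2.71, 4.38 and 3.40 FPKM against 2.42 and 1.77 (-0.53, adjusted p = 0.159). H2-T22, a ligand of some gamma-delta T cell receptors, had 5.46 to 6.76 FPKM against 4.63 and 5.01 (adjusted p = 0.259). H2-T24 had 2.20 to 3.36 FPKM against 3.07 and 3.12 (adjusted p = 0.544).

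Cd1d1, which presents lipids to natural killer T cells and lies outside the MHC, was the 1 tested class I gene that fell. Its levels were 8.69, 9.79 and 8.64 FPKM in the controls and 6.31 and 5.78 in the knockouts. Every knockout value was below every control value, and the mean went from 9.04 ± 0.648 to 6.05 ± 0.370 FPKM, with a log2 change of -0.51 (SE 0.0977, adjusted p = 0.0418). The call was lost without any filter on low values (adjusted p = 0.0869) with quantile normalization (0.0636), and without any 1 library other than control replicate 1 (0.0986 to 0.330).

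Of the other 20 class I entries, none passed the filter and 6 were listed at 0 in all libraries. They comprise most H2-M and H2-Q genes, H2-T3, H2-T10 and the transactivator gene Nlrc5, and none exceeded 0.624 FPKM.

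Most of the class II signal came from the editing genes. The editing genes H2-DMa, H2-DMb1, H2-DMb2, H2-Oa and H2-Ob were measured at 66.0, 85.1 and 67.6 FPKM in sum in the controls and 27.4 and 29.0 in the knockouts, so both knockouts lay below all controls. Cd74 and the 4 entries under H2-Ea, H2-Eb1 and H2-Eb2 summed to 2.59, 3.16 and 2.14 FPKM against 2.44 and 2.14, and the groups overlapped. These 4 entries stand for peptide-presenting chains, except an H2-Ea entry that GENCODE M21 lists as a polymorphic pseudogene. H2-Ab1, listed as Rmcs2 and described below, is not in that sum and ends the overlap.

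H2-DMa, the alpha chain of the peptide exchange catalyst, was the most abundant class II gene in the set. It was at 39.8, 49.7 and 41.1 FPKM in control libraries and 11.8 and 13.4 FPKM in knockout libraries. The lowest control was far above the highest knockout. The mean went from 43.5 ± 5.40 to 12.6 ± 1.12 FPKM, a log2 change of -1.70 (SE 0.126, adjusted p = 0.0077). This call was lost only where a knockout library was left out (adjusted p = 0.117 without knockout replicate 1 and 0.115 without replicate 2). H2-DMa overlaps Brd2 on the opposite strand, and whether the counting used strand is not given in the sources used here.

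The partner of H2-DMa, the beta chain gene H2-DMb1, was at 3.15, 4.27 and 4.08 FPKM in control libraries and 4.09 and 4.05 FPKM in knockout libraries, which lie inside the control range (0.077, interval -0.28 to 0.43, adjusted p = 0.750). H2-DMb2, a second beta chain gene, was low at 1.96, 1.42 and 1.28 FPKM against 0.564 and 0.649. Its groups did not overlap, but the test missed the threshold (-0.66, adjusted p = 0.0733; 0.0365 without control replicate 1). The 2 beta chain genes are near-identical copies, so how reads were divided between them is uncertain. The ratio of H2-DMa to H2-DMb1 was 12.6, 11.7 and 10.1 in the controls and 2.89 and 3.31 in the knockouts (exact permutation p = 0.1, adjusted 0.16).

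H2-Ob, the beta chain of the modulator that holds back H2-DM, was at 8.80, 9.70 and 5.26 FPKM in control libraries and 0.9001 and 0.834 FPKM in knockout libraries. Both knockouts were under 1 FPKM and all controls above 5 FPKM. The means were 7.92 ± 2.35 and 0.867 ± 0.0465 FPKM, 9.13-fold apart, with a log2 change of -2.22 (SE 0.255, adjusted p = 0.0162). With pseudocounts of 0.1 and 5 in place of 1 the log2 change of H2-Ob was -3.005 and -1.12, and the call held in both. It was lost without control replicate 2 (adjusted p = 0.0646) or with a single knockout library (0.164 and 0.180).

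H2-Oa, the alpha chain that pairs with H2-Ob, had 12.4, 20.03 and 16.0 FPKM in the controls and 9.98 and 10.02 in the knockouts. The knockouts lay below all controls, by less than for H2-Ob, and the test missed the threshold (-0.61, interval -1.13 to -0.10, adjusted p = 0.117); without control replicate 1 H2-Oa fell (-0.78, adjusted p = 0.0207). H2-Oa divided by H2-Ob went from 1.40, 2.07 and 3.03 in the controls to 11.1 and 12.01 in the knockouts (exact permutation p = 0.1, adjusted 0.16).

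**Figure D2:**
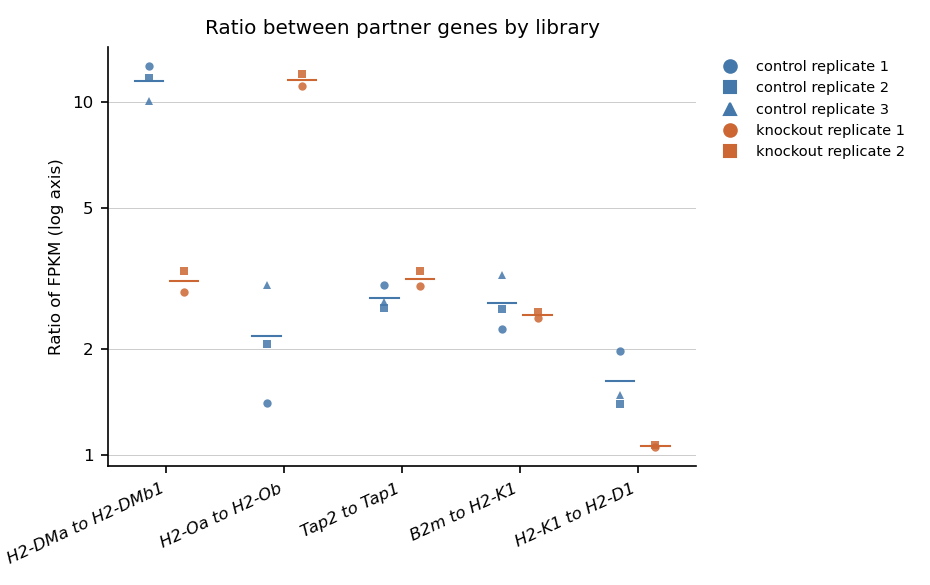
Ratio of FPKM (log axis) of 5 pairs of partner genes, 1 point per library with a line at the group mean, controls in blue and knockouts in orange. The ratio of H2-DMa to H2-DMb1 lies at 10.1 to 12.6 in the controls and 2.89 to 3.31 in the knockouts, that of H2-Oa to H2-Ob at 1.40 to 3.03 and 11.1 to 12.01, while that of B2m to H2-K1 overlaps.

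Cd74, the invariant chain and a defining class II gene, was listed at 2.08, 2.15 and 1.16 FPKM in control libraries and 1.53 and 1.31 in knockout libraries (-0.19, interval -0.73 to 0.35, adjusted p = 0.601). In all 5 libraries H2-DMa was above Cd74, the reverse of the order usual in antigen-presenting cells. The other 5 class II entries did not pass the filter: the transactivator gene Ciita, both H2-Ea entries, H2-Eb1 and H2-Eb2. An H2-Ea entry is H2-Aa in GENCODE M21 by its gene identifier and held the highest value among them, 0.806 FPKM. The other H2-Ea entry, there the polymorphic pseudogene H2-Ea-ps, was listed at 0 throughout.

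The beta chain of the same class II molecule, H2-Ab1, is listed under the older name Rmcs2 and so lies outside the set; it was looked at after the values were seen. Rmcs2 had values of 2.24, 6.78 and 4.55 FPKM in control libraries and 0.637 and 0.842 in knockout libraries. Both knockouts were below all controls, but the test missed the threshold (log2 change -1.58, 95% interval -2.56 to -0.60, adjusted p = 0.0658); without control replicate 1 Rmcs2 fell (-1.92, adjusted p = 0.0103). Rmcs2 passed the filter only through the controls. With Rmcs2 added, the presenting chains and Cd74 summed to 4.83, 9.93 and 6.69 FPKM in the controls and 3.07 and 2.98 in the knockouts, so the overlap seen without it was lost.

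**Figure D3:**
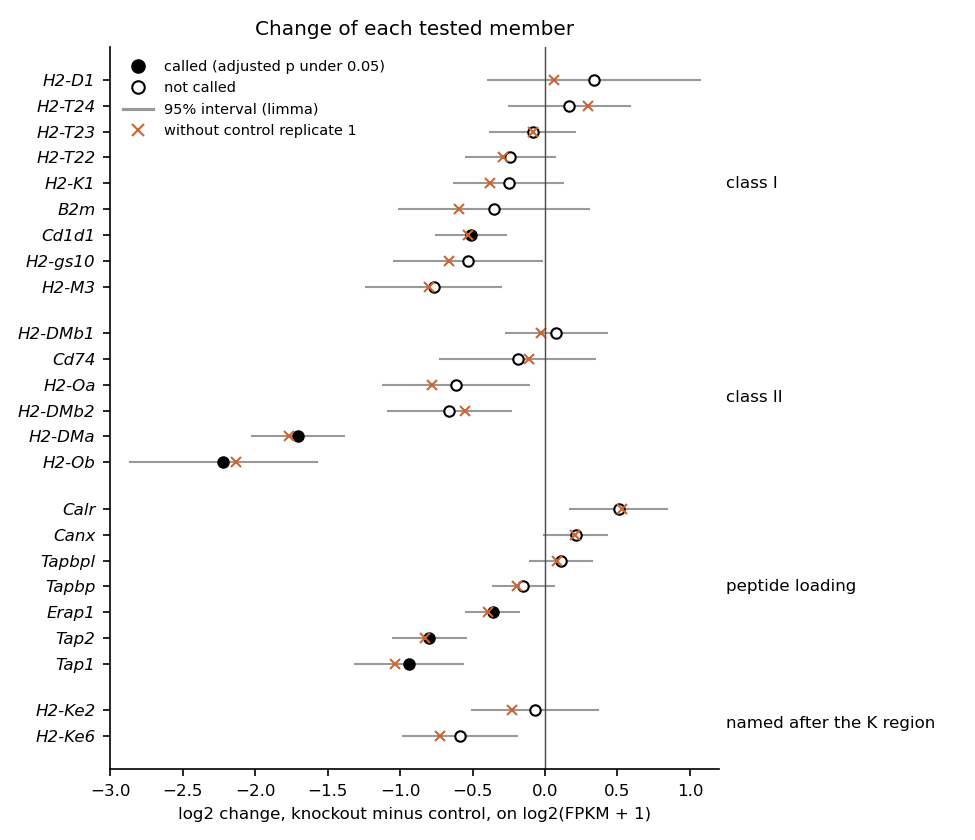
Log2 change (knockout less control, of log2(FPKM + 1)) with its 95% interval for each tested gene, ordered within class I, class II, loading and K region genes; filled points were called, and crosses give the change without control replicate 1. H2-Ob (-2.22) and H2-DMa (-1.70) lie farthest from 0, Calr (0.51) lies farthest on the positive side, and the intervals of B2m, H2-K1 and H2-D1 cross 0.

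Of the 7 peptide loading genes 3 fell, both transporter genes and Erap1, and none rose, beside 5.97% fallen and 3.82% risen over all genes tested. Tap1 and Tap2, which together form the peptide pump of the endoplasmic reticulum, summed to 84.0, 103 and 84.9 FPKM in the controls and 50.5 and 48.8 in the knockouts. Tap2 was at 63.2, 74.1 and 62.0 FPKM against 37.9 and 37.5, and its mean went from 66.4 ± 6.70 to 37.7 ± 0.257 FPKM (-0.80, SE 0.102, adjusted p = 0.0192). Tap1 was at 20.9, 28.4 and 22.8 FPKM against 12.6 and 11.3, and its mean went from 24.04 ± 3.92 to 11.96 ± 0.894 FPKM (-0.94, SE 0.148, adjusted p = 0.0283). For both genes all controls were above both knockouts. The ratio of Tap2 to Tap1 was 3.03, 2.61 and 2.72 in the controls and 3.01 and 3.31 in the knockouts, which overlap (exact permutation p = 0.3). Tap1 overlaps Psmb9 on the opposite strand. The calls were lost on leaving out control replicate 2 (adjusted p = 0.0646 for Tap1 and 0.0595 for Tap2) or control replicate 3 (0.0848 and 0.0604). With a single knockout library they were lost too (0.209 and 0.249 for Tap1, 0.201 and 0.205 for Tap2), and that of Tap1 also without any filter on low values (0.0662).

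Erap1, the aminopeptidase that trims peptides to class I length, had 19.8, 21.2 and 21.2 FPKM in the controls and 15.7 and 16.1 in the knockouts. The gap was small beside that of Tap1 but exceeded the spread: 20.7 ± 0.814 against 15.9 ± 0.303 FPKM (-0.36, SE 0.0742, adjusted p = 0.0472). The adjusted p of Erap1 rose above 0.05 with a pseudocount of 5 (0.0505), median-ratio scaling (0.0515), quantile normalization (0.0538), no intensity trend (0.0585) or no filter (0.0660), and without any 1 library other than control replicate 1 (0.120 to 0.348). Erap1 overlaps Cast on the opposite strand.

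The chaperones of the loading complex were not called. Calreticulin (Calr), a lectin chaperone with the highest level in the set, was at 1269, 1112 and 1323 FPKM in control libraries and 1691 and 1817 FPKM in knockout libraries. Both knockouts lay above all controls, with means of 1235 ± 109.7 and 1754 ± 89.5 FPKM (0.51, interval 0.17 to 0.85, adjusted p = 0.0771); without control replicate 1 Calr rose (0.53, adjusted p = 0.0372). Calnexin (Canx), its membrane-bound relative, had 303 to 335 FPKM against 359 and 376 (0.21, adjusted p = 0.187), again without overlap. Tapasin (Tapbp), the bridge between class I chains and the transporter, had 37.7 to 43.1 FPKM against 36.5 and 35.2 (-0.15, adjusted p = 0.298). Its relative Tapbpl, an independent peptide editor, had 10.1 to 11.0 FPKM against 10.9 and 12.02, which overlap (0.11, adjusted p = 0.453).

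Of the 2 genes named after the K region, H2-Ke6, a hydroxysteroid dehydrogenase gene, had 22.4, 31.8 and 28.6 FPKM in the controls and 18.0 and 17.7 in the knockouts (-0.59, adjusted p = 0.0806; 0.00963 without control replicate 1). H2-Ke2, listed as the prefoldin gene Pfdn6 in GENCODE M21, had 94.96 to 138 FPKM against 111 and 114, which overlap (-0.070, adjusted p = 0.821).

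The proteasome that makes class I peptides has 3 catalytic subunits that can be replaced by immune counterparts: Psmb5 by Psmb8, Psmb6 by Psmb9 and Psmb7 by Psmb10. Of the 5 immunoproteasome and activator genes, 2 fell, Psmb8 and Psmb9, and none rose, beside 5.97% fallen and 3.82% risen over all genes tested. Of the 3 constitutive counterparts, none was called by limma and none had an unadjusted p under 0.05. Over all 11780 genes tested, 3511 had an unadjusted p under 0.05. Psmb8 was at 133, 205 and 171 FPKM in control libraries and 68.4 and 65.6 FPKM in knockout libraries (-1.31, SE 0.190, adjusted p = 0.0243). Psmb9 was at 28.9, 45.1 and 33.1 FPKM against 11.5 and 10.4 (-1.60, SE 0.198, adjusted p = 0.0182). In both genes all controls were above both knockouts. The call of Psmb8 was lost without any filter on low values (adjusted p = 0.0616) and on leaving out control replicate 2 (0.0646), control replicate 3 (0.0840) or either knockout library (0.209 and 0.221). That of Psmb9 was lost on leaving out control replicate 3 (0.0677) or either knockout library (0.171 and 0.191).

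The third immune subunit gene, Psmb10, was at 47.1, 68.0 and 63.8 FPKM in control libraries and 65.1 and 62.5 FPKM in knockout libraries, inside the control range (0.11, interval -0.33 to 0.55, adjusted p = 0.701). Psmb10 lies outside the MHC, whereas Psmb8 and Psmb9 lie on either side of Tap1 in it. Psmb8 divided by Psmb5 was 1.71, 1.81 and 1.64 in the controls and 0.522 and 0.534 in the knockouts, so the order of the 2 counterparts turned over. Psmb9 divided by Psmb6 was 0.161, 0.163 and 0.117 against 0.0409 and 0.0361. Both ratios gave an exact permutation p of 0.1 (adjusted 0.16). Psmb10 divided by Psmb7 was 0.332, 0.332 and 0.305 against 0.319 and 0.2999, which overlap (exact permutation p = 0.3). The activator genes Psme1 (adjusted p = 0.352) and Psme2 (adjusted p = 0.201) were not called.

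**Figure D4:**
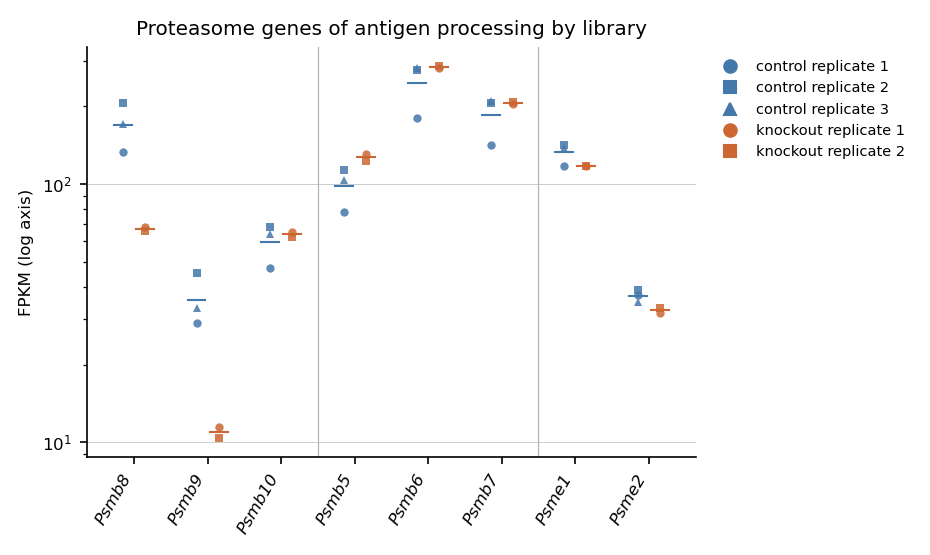
FPKM (log axis) of the 3 immune catalytic proteasome subunit genes, their constitutive counterparts and the activator genes Psme1 and Psme2, 1 point per library with a line at the group mean. Psmb8 and Psmb9 are lower in both knockouts than in every control, whereas Psmb10 lies at 62.5 and 65.1 FPKM in the knockouts and 47.1 to 68.0 in the controls.

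Genes that lie side by side in the MHC were compared next, in the gene order of GENCODE M21. Between Tapbp and H2-M3, 91 protein-coding genes were tested, of which 6 fell and 3 rose; the share called, 9.89%, is near the 9.79% over all genes tested, and both knockouts were below all controls in 26 (28.6%, beside 29.4% over all genes). All 6 that fell lie in the stretch of 10 tested genes from H2-Oa to H2-Ob, whose ends were chosen after the values were seen. In order these genes are H2-Oa, Brd2, H2-DMa, H2-DMb2, H2-DMb1, Psmb9, Tap1, Psmb8, Tap2 and H2-Ob. Both knockouts were below all controls in 9 of the 10, H2-DMb1 being the exception, and the median log2 change was -0.87. Brd2, which encodes a bromodomain protein with no part in antigen presentation, had 143, 232 and 225 FPKM in the controls and 129 and 140 in the knockouts (-0.54, adjusted p = 0.204; 0.00653 without control replicate 1).

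Among the other 81 genes of the region none fell and 3 rose, Neu1, Slc44a4 and Bat5. The median log2 change of the 81 was 0.020, and both knockouts were below all controls in 17, beside 29.4% over all genes tested. Because the ends of the stretch were chosen after the values were seen, its contrast with the 81 follows in part from that choice. The 81 include Rmcs2, the next tested gene past H2-Ob, with both knockouts below all controls (-1.58, limma adjusted p = 0.0658). Without control replicate 1 the counts were 9 fallen of the 10 in the stretch, and 9 fallen and 4 risen of the 81. Over all genes tested, 18.0% then fell and 11.9% rose. The lysosomal sialidase gene Neu1 was at 24.2, 22.5 and 24.6 FPKM against 50.5 and 51.5 (1.07, adjusted p = 0.00684). The calls of Slc44a4 (limma adjusted p = 0.0448) and Bat5 (0.0463) were lost with no filter and on leaving out control replicate 2 or 3. That of Slc44a4 was also lost with a pseudocount of 0.1, and that of Bat5 without the intensity trend. Class I heavy chain genes lie outside the stretch, and none of the 10 members out there was called.

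**Figure D5:**
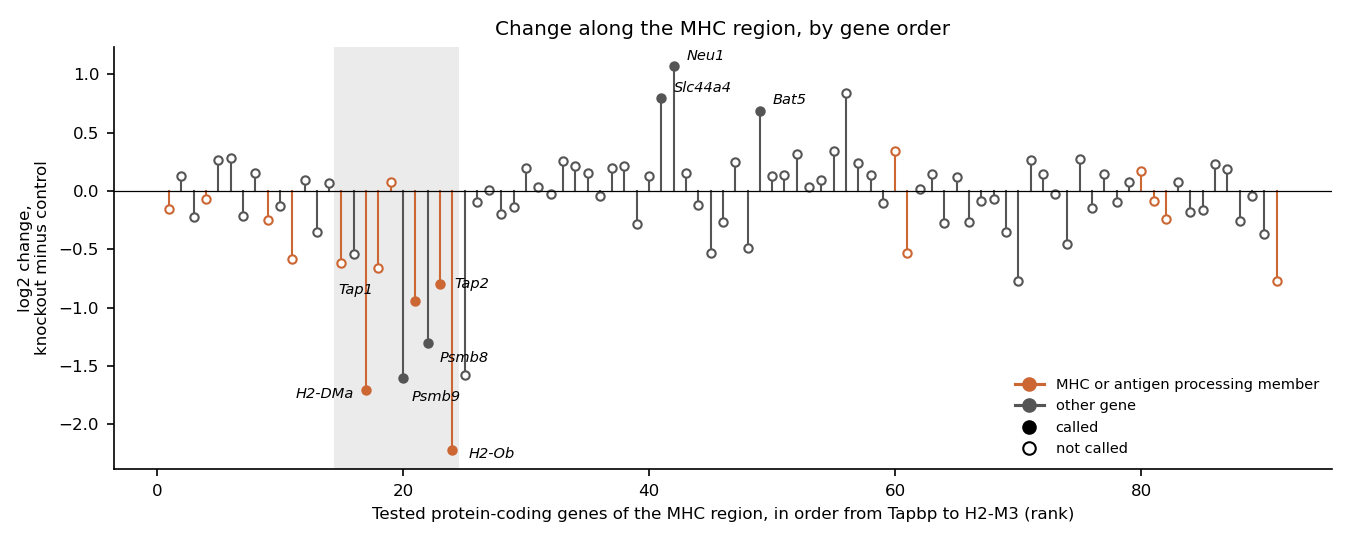
Log2 change (knockout minus control) of the 91 tested protein-coding genes between Tapbp and H2-M3, in chromosomal order of GENCODE M21 and evenly spaced, with members in orange, called genes filled and the stretch from H2-Oa to H2-Ob shaded; the open point just right of it is Rmcs2. The stretch, whose ends were chosen after the values were seen, holds 6 fallen genes. The other 81 genes hold 3 that rose and none that fell, a contrast that follows in part from that choice.

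Regulators of MHC genes were described from a list of 19, of which 18 were tested, 3 fell and 1 rose, beside 5.97% fallen and 3.82% risen over all genes tested. They went both ways, with a median log2 change of 0.030. Irf8, an interferon regulatory factor of monocyte and dendritic lineages, was at 4.82, 5.67 and 4.58 FPKM in control libraries and 0.778 and 0.826 FPKM in knockout libraries (-1.74, adjusted p = 0.00765). Irf8 passed the filter only through the controls, and its call was lost with a single knockout library (adjusted p = 0.118 and 0.123). Irf2, a factor of the same family that binds class I promoters, was at 16.3, 13.6 and 13.8 FPKM against 7.23 and 7.58 (-0.88, adjusted p = 0.0172). Nfya, a subunit of NF-Y, which binds CCAAT in class I and class II promoters, was at 23.8, 19.5 and 18.2 FPKM against 13.0 and 11.6 (-0.69, adjusted p = 0.0442). For each of these 3 genes the groups did not overlap. The call of Irf2 was lost on leaving out any 1 library other than control replicate 1 (adjusted p 0.0615 to 0.193). That of Nfya was lost in the same cases (0.0840 to 0.319), and also with no filter on low values (0.0919), median-ratio scaling (0.0572) and quantile normalization (0.0640).

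Ifngr1, the ligand-binding chain of the interferon gamma receptor, rose from 64.6, 47.5 and 46.8 FPKM to 110 and 114 (1.09, adjusted p = 0.0251). Its call was lost with no filter (0.0623) and on leaving out any 1 library other than control replicate 1 (0.0795 to 0.225).

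Around the loading complex, 13 further peptide loading and trimming genes were tested, and 1 rose: the cytosolic aminopeptidase gene Npepps, at 51.3, 44.2 and 48.2 FPKM in control libraries and 72.5 and 70.7 in knockout libraries (0.57, adjusted p = 0.0271). Without control replicate 1, 3 of these 13 genes rose. Over all genes tested, 5.97% fell and 3.82% rose, and 18.0% and 11.9% did without control replicate 1. Of 7 tested class II processing genes 1 fell and 1 rose. The tetraspanin gene Cd9 fell (40.5, 43.6 and 41.7 against 23.4 and 21.8 FPKM; -0.86, adjusted p = 0.0106). The lysosomal protease gene Ctsb rose (79.1, 83.8 and 88.6 against 156 and 154 FPKM; 0.88, adjusted p = 0.0113). Without control replicate 1, 2 fell and 2 rose. Among 4 tested class I-like genes, the iron regulator gene Hfe rose (3.05 to 3.99 against 6.75 and 6.69 FPKM; 0.77, adjusted p = 0.0291). Mr1, which presents vitamin B metabolites to MAIT cells, lay the other way, at 2.81, 4.26 and 3.77 against 1.67 and 1.82 FPKM; its test missed the threshold (-0.74, adjusted p = 0.0597; 0.0120 without control replicate 1). The calls of Npepps and Hfe were lost with no filter (adjusted p = 0.0524 and 0.0792), that of Npepps with quantile normalization (0.0587), and both on leaving out any 1 library other than control replicate 1 (0.0774 to 0.250 for Npepps, 0.0717 to 0.257 for Hfe). Those of Cd9 and Ctsb were lost on leaving out control replicate 2 (0.0544 and 0.0599) or either knockout library (0.138 and 0.165 for Cd9, 0.164 and 0.166 for Ctsb). Of the 2 tested receptor genes of class I molecules (Lilrb3 and Lilrb4) and the 3 tested co-stimulation genes (Icosl and Cd274 with the smallest p) none was called by limma; 0 and 1 of them had an unadjusted p under 0.05.

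Of 59 tested genes of the MHC region that were listed as outside antigen presentation, none fell and 2 rose, Neu1 and Slc44a4. Over all genes tested, 5.97% fell and 3.82% rose. Of the 59, 8 had an unadjusted p under 0.05 in limma, beside 3511 of all 11780 genes tested. Without control replicate 1, 6 of the 59 fell and 2 rose, beside 18.0% fallen and 11.9% risen over all genes. Most of the 59 are also among the 91 genes of the region described above.

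Marker genes of cell types that express class II molecules were measured in the same libraries. In bulk RNA, fewer cells of a type and less RNA per cell cannot be told apart. Of 7 B cell markers found in the files none passed the filter, Pax5 was listed at 0 in all libraries, and the summed level was 0.707 to 1.61 FPKM in the controls and 0.799 to 1.004 in the knockouts. Of 10 dendritic cell markers found, 2 were tested, Siglech and Cd209a were listed at 0 throughout, and the summed level was 169 to 198 FPKM in the controls and 87.4 to 94.9 in the knockouts. That gap came from Flt3, a receptor that early progenitors carry too, which fell (83.5 to 96.3 against 7.69 and 9.51 FPKM). Without Flt3 the sums were 79.0, 101.5 and 85.3 FPKM in the controls and 85.3 and 79.8 in the knockouts, which overlap. Bst2, the other tested marker, had a log2 change of -0.092 (adjusted p = 0.671), and the dendritic markers that did not pass the filter reached at most 0.314 FPKM.

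Of 11 macrophage and monocyte markers 6 were tested and Ccr2 fell, with Marco at 0 throughout. Without control replicate 1, 2 fell (Ccr2 and Cd163) and 2 rose (Cd14 and Ly6c2). The summed level was 283 FPKM in control replicate 1, 106.5 and 87.5 in the other controls and 321 and 282 in the knockouts. Most of the knockout sums came from Ly6c2, at 172.9, 40.4 and 34.5 FPKM in control libraries and 266.6 and 225.3 in knockout libraries (limma adjusted p = 0.154). Of 9 T and NK cell markers found none was called, Cd3g and Ncr1 were listed at 0, and the sums of 9.83 to 12.2 FPKM in the controls and 9.18 to 9.68 in the knockouts did not overlap. Of 11 mature neutrophil genes found, 9 were tested and Lcn2 rose. Without control replicate 1, 8 of the 9 rose, among them S100a8 with a log2 change of 4.79, and 1 fell. The summed level was 6409 FPKM in control replicate 1, 792 and 1053 in the other controls and 20680 and 22420 in the knockouts. Of 9 common myeloid progenitor markers Cd34 fell and 5 rose (Fcgr3, Csf2rb, Fcgr2b, Gata2 and Mpo). Over all genes tested, 5.97% fell and 3.82% rose, and 18.0% and 11.9% did without control replicate 1. The calls of Lcn2 (limma adjusted p = 0.0367), Gata2 (0.0439) and Mpo (0.0469) were lost with no filter and with quantile normalization. These calls and those of Csf2rb and Fcgr2b were also lost on leaving out control replicate 2 or 3. The summed neutrophil level and Flt3 thus moved with the groups in which H2-DMa, H2-Ob, Tap1 and Tap2 fell, and their part in those results was not tested.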

How the data were processed

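RNA sequencing of 3 control and 2 knockout libraries was used as FPKM, which the authors computed and deposited, 1 value per gene and library (31626 genes). Per the submitters' processing notes, CASAVA 1.8.2, GSNAP, SAMtools and Cuffdiff were used with build mm9, and per the labels' protocols the libraries were stranded mRNA. The sources used here do not give the annotation, how multi-mapping reads were handled or whether strand was used in counting.

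Genes with a failed estimate (999999999; 16 genes, 0 members) were left out. The 11780 genes that reached 1 FPKM in 2 or more libraries were fitted on log2(FPKM + 1) by limma 3.58.1 (R 4.3.3), with trended variances and no covariate; calls were made at a Benjamini-Hochberg adjusted p under 0.05. The method was tested on simulated data. The ratios of partner genes and Mll1 were tested by exact permutation of the 5 libraries. Absolute depth is unknown; values of genes under 2 FPKM step by the worth of 1 read, and relative to control replicate 1 that step was 0.993 and 1.017 in the other controls, and 0.979 and 0.981 in the knockouts.

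The text names Mll1, every member that passed the filter, and of each gene list the called genes (at most 6 by smallest p) or, with none called, the 2 with the smallest p; other genes are named where the text turns on them and were then chosen after their values were seen. Members, lists and ratios were chosen with earlier results of these data known. GENCODE M21 (GRCm38, not the build of the files) supplied current symbols, overlaps and gene order only; it held 48 of the 49 gene identifiers of the set. Promoters came from RefSeq (GRCm38.p6). Other pseudocounts, filters, scalings, a fit without trend, a replicate block, another threshold and leaving out each library were tried.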

Additional observations from a re-analysis of the deposited data

How the results depend on the processing

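Of the 1153 genes called over all genes (703 fell, 450 rose), 497 were called with no filter on low values, 55 with a replicate block, 2435 at a threshold of 0.10, and between 0 and 3516 with 1 library left out: 3516 without control replicate 1, 111 and 204 without control replicates 2 and 3, 7 and 0 without knockout replicates 1 and 2 (limma; 1693 and 1669 genes then had an unadjusted p under 0.05). The split was 603 fallen and 589 risen with median-ratio scaling and 564 and 518 with quantile normalization. Of the 6 members called, 3 were called with no filter (H2-DMa, H2-Ob and Tap2), 2 with the replicate block (H2-DMa and H2-Ob), 10 at a threshold of 0.10, and between 0 and 12 with 1 library left out: 12 without control replicate 1, 1 (H2-DMa) and 2 (H2-DMa and H2-Ob) without control replicates 2 and 3, and 0 without either knockout library. Leaving out a library means fewer samples. A lone knockout library is assumed to vary like the controls. Whether same-numbered libraries were paired is not given. The deviations of same-numbered libraries from their group means correlated at 0.037 and 0.0123 in the 2 pairs. With 2 knockout libraries these deviations are exact opposites, so the correlations cannot settle whether the libraries were paired. A call lost under the block is no measure of the size of an effect. Among the other called genes, Psmb8, Psmb9, Irf8, Irf2, Nfya, Ifngr1, Npepps, Cd9, Ctsb, Hfe and Neu1 were not called under the block. Nor were Slc44a4, Bat5, Ccr2, Lcn2, Cd34, Fcgr3, Csf2rb, Fcgr2b, Gata2 and Mpo, whereas Flt3 was. All 6 called members kept their direction under every alternative run; among the others, H2-DMb1, H2-Ke2 and H2-T23 changed sign in 1 alternative each. Mll1 missed the threshold under every alternative (log2 change -0.51 to -0.27, adjusted p 0.0887 to 0.575). Depth in reads is unknown, which limits entries under 1 FPKM.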

Other observations

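In all, 4 entries carry other names in the files and have a current symbol beginning with H2- in GENCODE M21, matched by gene identifier; besides Rmcs2 (H2-Ab1), these are H2-K2, H2-T-ps and H2-Bl, none of which passed the filter.

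Both transactivator genes were low, and their values are given because of their role. Nlrc5 was listed with 0.0485, 0.538 and 0.477 FPKM in control libraries and 0.143 and 0.159 in the knockouts. The control range of Nlrc5 encloses the knockouts, with control replicate 1 the lowest. Ciita was listed with 0.0295, 0.0586 and 0.0601 FPKM in control libraries and 0.0050 in each knockout, a level with no known number of reads. H2-Q10, which encodes a secreted class I molecule, was among the untested entries the 1 in which both knockouts, at 0.584 and 0.624 FPKM, lay above all controls, at 0.0583, 0.166 and 0.207. Both knockouts lay below all controls in the untested entries Ciita, H2-Q9, H2-T10 and the H2-Q1 entry that keeps its name in GENCODE M21.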
